A study of Mus musculus with 12 samples.

Results

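The genes of the transforming growth factor-beta (TGF-beta) system followed here are 10 members chosen by name: the ligands Tgfb1, Tgfb2 and Tgfb3, the receptors Tgfbr1, Tgfbr2 and Tgfbr3, the intracellular proteins Smad3 and Smad7, and the latent binding proteins Ltbp1 and Ltbp2. Each was found once, by its gene symbol, among 43280 entries of the table that holds Control and 2MUT cells and among 23930 entries of the table of the 2-HG experiment. In MEF cells expressing mutant IDH2, 5 of the 10 genes were higher and 1 was lower than in Control, where 16.5% and 17.3% of all genes tested were, with the type II receptor Tgfbr2, the co-receptor Tgfbr3 and the ligand Tgfb2 among those that rose. In MEF cells cultured with 2-HG, Tgfbr2 and Tgfbr3 fell instead, and Ltbp2 fell to 0.235 times its level in 2-HG(-).

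All 12 libraries, in 4 groups of equal size, are from MEF cells, here a line of mouse embryonic fibroblasts (C57BL/6, day 13.5) that became immortal spontaneously. In 2MUT cells a retroviral construct with puromycin resistance drove stable expression of FLAG-tagged mutant human IDH2, and Control cells carried the empty vector. The 2-HG(+) group received 2-HG in a membrane-permeant form at 300 μM over 24 h. The 2-HG(-) group is labelled as given DMSO and described elsewhere as non-treated. Mutant IDH2 converts α-ketoglutarate to 2-HG, and the comparisons address which transcripts respond to the mutant and which to the metabolite itself. Because stable cells grow out of a transduction and selection, an effect of the mutant and the history of the selected cells cannot be told apart. No group expressed wild-type IDH2 from the vector, so an effect of the mutation and one of expressing IDH2 as such cannot be told apart either. Nothing in the labels says that the 3 libraries of a group came from separate cultures, so p-values measure the spread between these libraries, which may be technical.

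TGF-beta is secreted as a latent complex, in which the ligand stays bound to its own propeptide and, through it, to a latent TGF-beta binding protein that anchors the complex in the extracellular matrix. Once released by integrins, thrombospondin-1 or proteases, the ligand is presented by betaglycan to the type II receptor, which phosphorylates the type I receptor, and this in turn phosphorylates SMAD2 and SMAD3. SMAD7 is induced by the pathway and blocks the activated type I receptor. In fibroblasts the pathway is known for driving contractile and matrix genes.

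The Ion AmpliSeq kit amplifies and reads one stretch per transcript, and the values are RPM, the reads on a gene scaled to those counted in the library, so that levels of different genes are not on one scale. Libraries held between 6472439 and 7313602 reads in the table of Control and 2MUT and between 14959318 and 18363768 reads in that of the 2-HG experiment, where 3 reads correspond to 0.163 to 0.201 RPM against 0.41 to 0.464 RPM in the former. The cells carried fibroblast markers (8 of 9 above 3 reads in every Control and 2MUT library, and all 8 listed ones in every 2-HG library), while markers of epithelium, endothelium, adipocytes and muscle each summed to at most 4.70 RPM in any library. The fibroblast markers themselves moved with the groups: of 8 tested, 2 rose and 5 fell in 2MUT, and 1 rose and 3 fell with 2-HG, by limma. Vim went from 3110 ± 337 RPM in Control to 1265 ± 68.4 RPM in 2MUT (log2 fold change -1.29, adjusted p = 4.1e-06) and Thy1 from 80.4 ± 2.63 to 24.2 ± 4.78 RPM (-1.71, adjusted p = 1.4e-05). With 2-HG, Pdgfrb went from 307 ± 10.4 to 106 ± 3.83 RPM (-1.53, adjusted p = 3.3e-06) and Pdgfra from 80.5 ± 13.7 to 30.7 ± 8.08 RPM (-1.38, adjusted p = 0.00068), each SD over 3 libraries. The markers summed to between 16889 and 18849 RPM in Control, 16495 and 17087 RPM in 2MUT, 23611 and 25222 RPM in 2-HG(-), and 17156 and 17910 RPM in 2-HG(+). The haematopoietic markers summed to between 11.2 and 14.8 RPM in Control and between 34.5 and 44.9 RPM in 2MUT, nearly all of it Cd14, with the pan-leukocyte gene Ptprc at 0 in every 2MUT library, and the part of these changes in the results below was not tested. Endogenous Idh2 fell from 77.3 ± 5.54 RPM (SD, n = 3) in Control to 49.6 ± 6.39 RPM (SD, n = 3) in 2MUT, with a limma adjusted p of 0.003, and rose from 177 ± 14.3 RPM in 2-HG(-) to 238 ± 19.2 RPM in 2-HG(+) (SD, n = 3 per group), with a limma adjusted p of 0.011. The transgene is human, and its reads were not looked for here.

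The upstream sequences of the members that passed the threshold with the largest changes are shown, since they are where SMAD proteins and other factors could bind. RefSeq windows of 250 bases before a gene start were at hand for 7 of the 10 members, and those of Tgfb3, Tgfbr3 and Smad7 are not shown. Capitals mark CAGAC, the core sequence that SMAD3 and SMAD4 recognize, or its reverse complement GTCTG, in GRCm38.p6, read 5′ to 3′ on the strand of the gene and with positions counted back from its start. The 4 windows are those of Tgfb2 (chr1:186705990-186706239, minus strand), Tgfbr2 (chr9:116175364-116175613, minus strand), Smad3 (chr9:63757995-63758244, minus strand) and Ltbp2 (chr12:84876492-84876741, minus strand).
Tgfb2: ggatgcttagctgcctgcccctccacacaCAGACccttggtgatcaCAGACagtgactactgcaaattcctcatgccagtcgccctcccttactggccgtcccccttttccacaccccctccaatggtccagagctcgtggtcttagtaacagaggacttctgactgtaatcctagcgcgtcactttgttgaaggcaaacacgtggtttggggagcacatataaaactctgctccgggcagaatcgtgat
Tgfbr2: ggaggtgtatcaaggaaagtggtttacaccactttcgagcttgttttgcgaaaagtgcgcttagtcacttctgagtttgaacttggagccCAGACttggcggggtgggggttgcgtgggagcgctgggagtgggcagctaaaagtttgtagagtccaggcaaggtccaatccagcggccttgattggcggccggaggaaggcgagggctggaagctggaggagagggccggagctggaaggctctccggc
Smad3: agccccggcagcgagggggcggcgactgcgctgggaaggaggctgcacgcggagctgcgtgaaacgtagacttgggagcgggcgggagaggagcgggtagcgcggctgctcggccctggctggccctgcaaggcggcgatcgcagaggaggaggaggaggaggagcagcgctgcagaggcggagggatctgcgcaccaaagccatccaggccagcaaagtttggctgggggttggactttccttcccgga
Ltbp2: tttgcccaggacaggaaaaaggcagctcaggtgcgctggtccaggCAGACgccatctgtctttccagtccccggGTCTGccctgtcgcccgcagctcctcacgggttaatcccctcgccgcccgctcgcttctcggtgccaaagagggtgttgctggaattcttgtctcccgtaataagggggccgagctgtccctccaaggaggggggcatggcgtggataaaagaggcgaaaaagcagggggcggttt

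In the Tgfb2 window, CAGAC stood at -221 and -204. Tgfbr2 had 1 copy at -160, and Ltbp2 had CAGAC at -205 and GTCTG at -176. Smad3 had neither, with 22 CG dinucleotides against a median of 6 over all 32851 mouse windows of this length, 12 in Tgfbr2, 16 in Ltbp2 and 8 in Tgfb2. The 7 members had 9 windows, since Tgfbr1 and Ltbp1 each had one at 2 starts. On either strand CAGAC was found in 42.2% of all windows and in 6 of these 9, the single windows of Tgfb2, Tgfbr2 and Ltbp2, both of Ltbp1 and 1 of Tgfbr1. The Tgfbr1 window with the motif belongs to a start inside the gene, and the one before the annotated gene start has no copy. A window of Ltbp1 (chr17:75178531-75178780), with 2 copies, also lies inside the gene, and the one before the annotated gene start has 1. The window of Ltbp2 reaches into the annotated gene, which extends to 84876532. Among other motifs searched on both strands, ACGTG, a form of the core of the hypoxia response element, was found in 16.6% of all windows. Among the members it was in the window of Tgfb2, within the palindrome CACGTG. It was also in a window of Ltbp1, as CACGT that shares its last 2 bases with a GTCTG. The other form of this core, GCGTG, was not searched for, though its letters stand in the printed windows of Tgfbr2, Smad3 and Ltbp2. Neither TGANTCA, the AP-1 site (6.75% of all windows), nor the palindromic SMAD element GTCTAGAC (0.167%) was found in a member's window. These matches describe the letters in the windows and not binding.

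Differences were tested with limma on log2(RPM + 1), and adjusted p-values are those of Benjamini and Hochberg over all genes tested, with a threshold of 0.05. All 10 members passed the filter of a mean of 1 RPM in both experiments. In 2MUT against Control, 5 members were higher (Tgfb2, Tgfbr2, Tgfbr3, Smad3 and Smad7), where 16.5% of 11065 genes were higher, 1 was lower (Ltbp1), where 17.3% of genes were lower, and 4 were not past the threshold. The 3 libraries of 2MUT lay wholly above or below those of Control for 7 of the 10 members and for 47.5% of genes. With 2-HG, 3 members were lower (Tgfbr2, Tgfbr3 and Ltbp2), where 16.7% of 10384 genes were lower. In that comparison limma called 0 members higher, where 16.1% of genes were higher, while 1 member, Smad7, was higher at an unadjusted p under 0.05 and also by edgeR and DESeq2. Groups did not overlap for 5 of the 10 members with 2-HG and for 46.3% of genes. The median log2 fold change over the members was 0.46 in 2MUT and -0.11 with 2-HG, beside 0.01 and -0.02 over all genes tested.

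**Figure D1:**
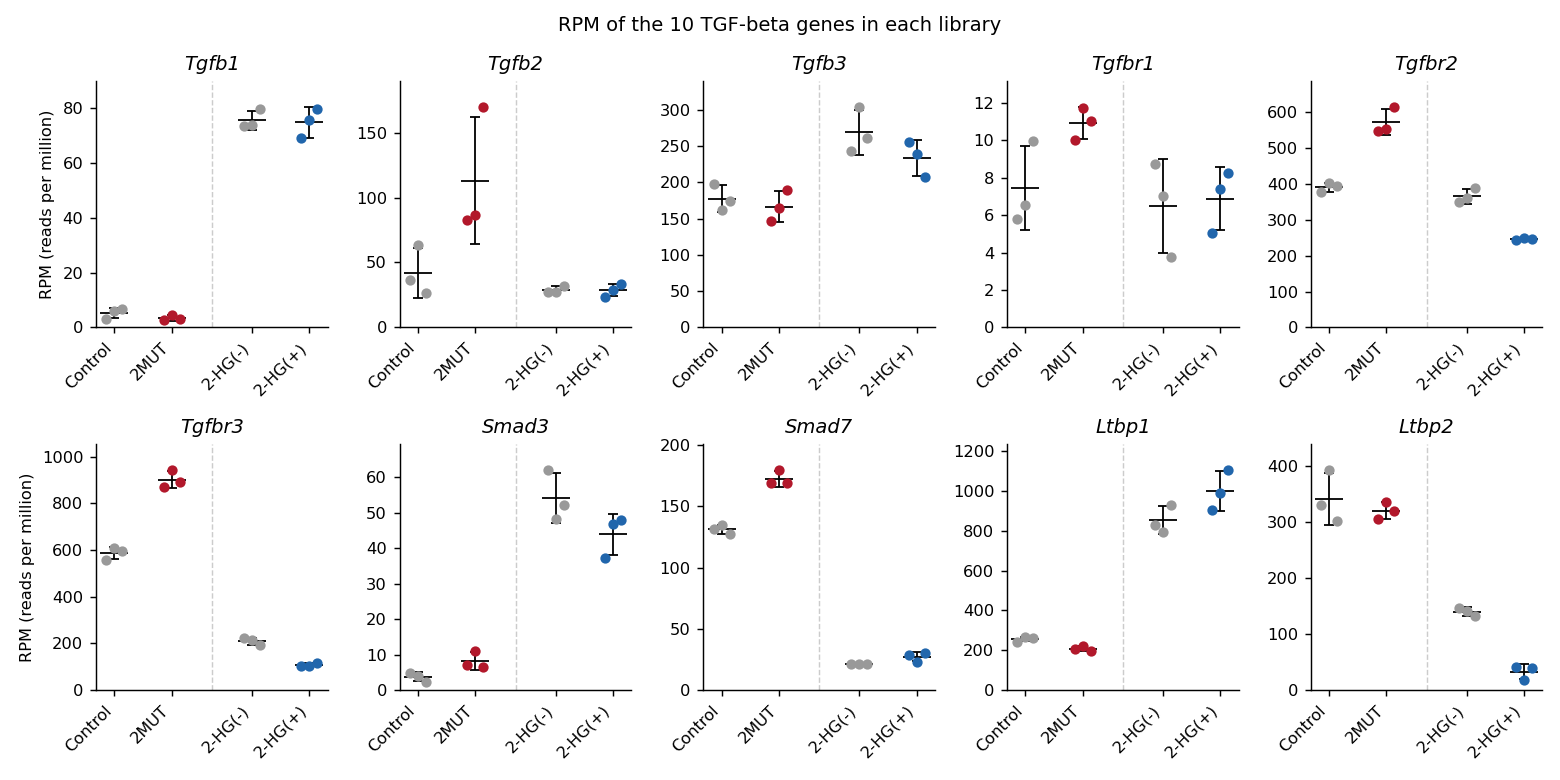
RPM of each gene in each library (points), with the mean (long bar) and SD (error bar, n = 3) of Control, 2MUT, 2-HG(-) and 2-HG(+). The vertical axes start at 0 and differ between genes, and the dashed line separates the tables, which were normalized separately; the 2MUT points of Tgfbr2 and Tgfbr3 lie above all Control points, and the 2-HG(+) points below all 2-HG(-) points.

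Among the ligands, Tgfb2 passed the threshold in 2MUT, and Tgfb1 and Tgfb3 passed it in neither experiment. These libraries are bulk RNA, in which fewer cells expressing a gene and less RNA per cell cannot be told apart. Tgfb2, on chr1:186622792-186705989 of GRCm38 with up to 8 exons, was at 36.5, 63.4 and 26.4 RPM in the Control libraries and at 83.0, 86.5 and 169 RPM in 2MUT. Each 2MUT library was above each Control library, and the third 2MUT library stood well above the other two. The mean rose from 42.1 ± 19.1 to 113 ± 48.9 RPM (SD, n = 3 each), 2.68-fold, for a log2 change of 1.41 (standard error 0.31, adjusted p = 0.0048). It lay between 1.08 and 1.75 with any 1 library left out, and past the threshold each time, but did not pass in a per-gene test without moderation (adjusted p = 0.12). With 2-HG, Tgfb2 was at 27.3, 27.3 and 32.0 RPM in 2-HG(-) and at 23.7, 29.0 and 33.2 RPM in 2-HG(+). These overlap, for a log2 change of -0.02 (standard error 0.14, adjusted p = 0.93).

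Tgfb1, the isoform best known from fibrosis, lies on chr7:25687002-25705077 and had few reads in Control and 2MUT. It stood at 3.11, 5.98 and 6.70 RPM in Control and at 2.63, 4.685 and 3.03 RPM in 2MUT, where the lowest value rests on 17 reads. The groups overlapped, and the log2 fold change of -0.47 (standard error 0.28) did not pass the threshold (adjusted p = 0.22). In the 2-HG experiment the same gene was at 73.2, 73.9 and 79.5 RPM without 2-HG and at 68.9, 75.5 and 79.8 RPM with it. Its log2 fold change there was -0.02 (standard error 0.10, adjusted p = 0.91). Tgfb3, on chr12:86056745-86079041, was at 198, 161 and 174 RPM in Control and at 146, 164 and 189 RPM in 2MUT, and these groups overlapped (log2 fold change -0.10, standard error 0.12, adjusted p = 0.57). With 2-HG it went from 243, 303 and 261 RPM to 256, 239 and 207 RPM, again overlapping (log2 fold change -0.20, standard error 0.12, adjusted p = 0.23). Ttll5 overlaps Tgfb3 on the opposite strand, with a mean of 1.28 RPM in the Control and 2MUT table and 5.12 RPM in the other, and whether reads were counted by strand is not given in the sources used here.

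Tgfbr2 and Tgfbr3, the receptors that bind the ligand first, moved in opposite directions in the 2 experiments. Tgfbr3 encodes betaglycan, the co-receptor that is needed most for TGF-beta2, and lies on chr5:107106570-107289629 with up to 17 exons. It stood at 558, 608 and 598 RPM in Control and at 870.0, 943 and 893 RPM in 2MUT, every 2MUT library above every Control library. The mean rose from 588 ± 26.4 to 902 ± 37.2 RPM (SD, n = 3 each), 1.53-fold, for a log2 change of 0.62 (standard error 0.08, adjusted p = 0.00025). In 2-HG(-) it was at 223, 213 and 193 RPM, and in 2-HG(+) at 104, 102 and 117 RPM. All 3 treated libraries were well below all untreated ones, the mean falling from 209.8 ± 15.3 to 107 ± 8.1 RPM (SD, n = 3 each), 0.511 times, for a log2 change of -0.96 (standard error 0.10, adjusted p = 0.00011).

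Tgfbr2, the type II receptor kinase, on chr9:116084293-116175360 with up to 8 exons, was at 377, 403 and 393 RPM in Control and at 548, 554 and 614 RPM in 2MUT. Groups were separate and the mean was 1.46-fold higher, 572 ± 36.1 against 391 ± 13.0 RPM (SD, n = 3 each), for a log2 change of 0.55 (standard error 0.09, adjusted p = 0.00072). With 2-HG it fell from 349, 359.8 and 389 RPM to 245, 248 and 246 RPM. The treated libraries lay within a few RPM of each other and below all untreated ones, for a log2 change of -0.57 (standard error 0.09, adjusted p = 0.0011). The calls of Tgfbr2 and Tgfbr3 were kept under every other setting and with any 1 library left out, in both experiments.

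Tgfbr1, the type I receptor kinase, on chr4:47353222-47414931, stood between 3.78 and 11.7 RPM in the 12 libraries. It was at 5.77, 6.55 and 9.98 RPM in Control and at 10.04, 11.7 and 11.0 RPM in 2MUT. The 2MUT values were all above the Control values, though the lowest exceeded the highest by little, and the log2 fold change of 0.53 (standard error 0.21) did not pass the threshold (adjusted p = 0.075). Without the third Control library it was 0.73 and passed (adjusted p = 0.014). With 2-HG, Tgfbr1 went from 8.71, 7.02 and 3.78 RPM to 5.02, 7.40 and 8.23 RPM, overlapping groups for a log2 change of 0.11 (standard error 0.26, adjusted p = 0.78) that changed sign with the third 2-HG(-) library left out (-0.19) or the third 2-HG(+) library left out (-0.02). Summed over the 3 receptors, RPM were 986 ± 40.3 in Control, 1485 ± 49.0 in 2MUT, 582 ± 3.45 in 2-HG(-) and 361 ± 9.3 in 2-HG(+) (SD, n = 3 each). These sums follow Tgfbr2 and Tgfbr3, which hold nearly all of the reads. Since levels of different genes are not on one scale, the sums do not give the share of each receptor in the RNA.

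**Figure D2:**
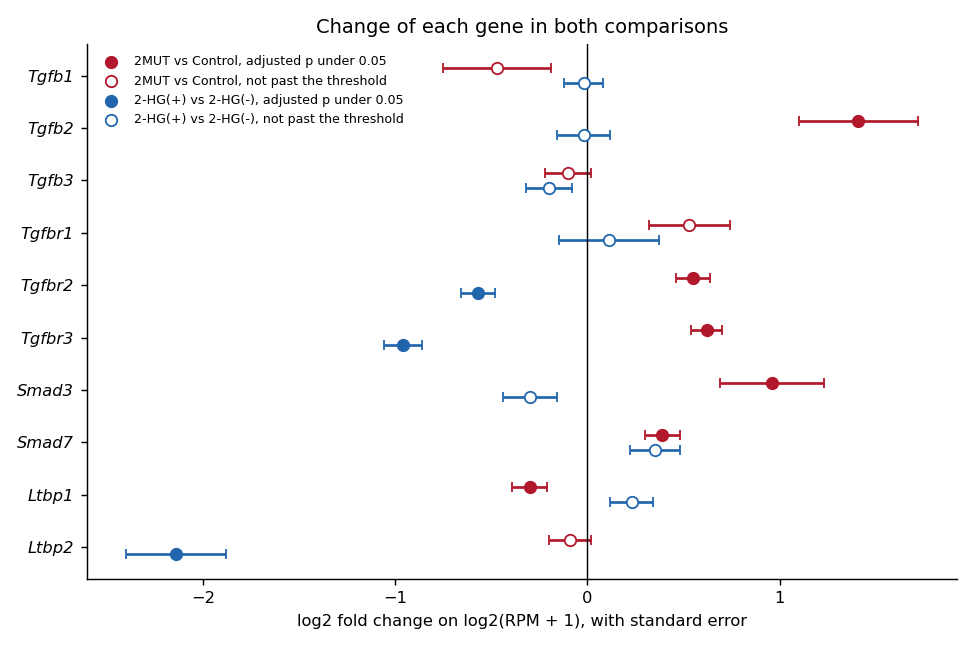
Log2 fold change of each gene on log2(RPM + 1), horizontal axis, in 2MUT against Control (red) and in 2-HG(+) against 2-HG(-) (blue), with its standard error as a bar. Filled points have an adjusted p under 0.05; Tgfbr2 and Tgfbr3 are filled on both sides of 0, and Ltbp2 reaches -2.14 with 2-HG.

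Smad3, the transcription factor that carries the signal to the nucleus, lies on chr9:63646767-63757994 and was at 4.88, 3.99 and 2.32 RPM in Control and at 6.95, 10.98 and 6.47 RPM in 2MUT. All 2MUT libraries were above all Control libraries, 3.73 ± 1.30 against 8.13 ± 2.48 RPM (SD, n = 3 each), although the lowest library holds 17 reads on the gene. The rise was 2.18-fold between means, for a log2 change of 0.96 (standard error 0.27, adjusted p = 0.017), a scale that understates changes at such low values. The call was lost without the second 2MUT library (log2 fold change 0.74, adjusted p = 0.079) and in the per-gene test without moderation (adjusted p = 0.12). In the 2-HG experiment Smad3 was at 62.1, 48.4 and 52.4 RPM without 2-HG and at 37.4, 46.8 and 47.9 RPM with it. The treated libraries were all below the untreated ones, but the log2 fold change of -0.30 (standard error 0.14) did not pass the threshold (adjusted p = 0.12).

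Smad7, the inhibitory SMAD, on chr18:75367529-75395935, was the member with the most similar change in both experiments. It was at 131, 135 and 128 RPM in Control and at 169, 179.6 and 169 RPM in 2MUT, separate groups with a 1.31-fold higher mean (log2 fold change 0.39, standard error 0.09, adjusted p = 0.0072). With 2-HG it went from 20.9, 20.9 and 21.5 RPM to 28.3, 23.2 and 30.3 RPM. All treated libraries were above the untreated ones, for a log2 change of 0.35 (standard error 0.13) that missed the threshold in limma (adjusted p = 0.064, unadjusted p = 0.022). It passed with edgeR (adjusted p = 0.048), with DESeq2 (0.037), with quantile normalization (0.039) and without the second 2-HG(+) library (log2 fold change 0.45, adjusted p = 0.042), and its adjusted p ranged from 0.037 to 0.13 over all settings other than those with a library left out.

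Each of the latent binding proteins passed the threshold in 1 experiment. Ltbp2, on chr12:84783212-84876532 with up to 36 exons, is a matrix protein of elastic fibres that, unlike other members of its family, does not bind latent TGF-beta. In 2-HG(-) it was at 147, 141 and 133 RPM, and in 2-HG(+) at 40.9, 17.9 and 40.1 RPM. Every treated library was far below the untreated ones, and the second was lower than the other two. The mean fell from 140.2 ± 7.24 to 33.0 ± 13.0 RPM (SD, n = 3 each), for a log2 change of -2.14 (standard error 0.26, adjusted p = 0.00029), between -2.34 and -1.77 with 1 library left out. In Control it was at 330.1, 393 and 302 RPM and in 2MUT at 305, 336 and 319.8 RPM, which overlap (log2 fold change -0.09, standard error 0.11, adjusted p = 0.57). The antisense gene D030025P21Rik overlaps Ltbp2, with a mean of 0.43 RPM in the Control and 2MUT table and 0.622 RPM in the other.

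Ltbp1, which links latent TGF-beta to fibronectin and fibrillin in the matrix, lies on chr17:75005568-75392512 with up to 35 exons. It was at 243, 266 and 259 RPM in Control and at 204, 221 and 197 RPM in 2MUT. All 2MUT libraries were below all Control libraries, 0.811 times in the mean, for a log2 change of -0.30 (standard error 0.09, adjusted p = 0.026). This call did not hold without the second Control library (-0.27, adjusted p = 0.068), without the first 2MUT library (-0.29, adjusted p = 0.087), without the third 2MUT library (-0.27, adjusted p = 0.1) or with limma without a trend (-0.30, adjusted p = 0.081). With 2-HG, Ltbp1 went from 830.2, 794 and 929.9 RPM to 902, 988 and 1104 RPM, overlapping groups for a log2 change of 0.23 (standard error 0.11, adjusted p = 0.15).

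The experiments share no libraries, so the change in 2MUT could be set against that with 2-HG, by a limma contrast of the changes over all 12 libraries. It passed for 6 of the 10 members and for 39.4% of the 9594 genes tested in both. Tgfbr3 differed by 1.58 on the log2 scale (standard error 0.13, adjusted p = 6.2e-07) and Tgfbr2 by 1.11 (standard error 0.12, adjusted p = 6.6e-06), each higher in 2MUT and lower with 2-HG. Ltbp2 differed by 2.06 (standard error 0.32, adjusted p = 0.00021), a fall with 2-HG that was not detected in 2MUT. For Tgfb2 the difference was 1.43 (standard error 0.41, adjusted p = 0.013) and for Smad3 it was 1.25 (standard error 0.31, adjusted p = 0.0061). Ltbp1 went the other way, with a difference of -0.53 (standard error 0.14, adjusted p = 0.0081).

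No difference was detected for Smad7 (0.04, standard error 0.15, adjusted p = 0.84), Tgfb3 (0.10, standard error 0.18, adjusted p = 0.67), Tgfbr1 (0.42, standard error 0.36, adjusted p = 0.39) or Tgfb1 (-0.45, standard error 0.31, adjusted p = 0.26). Without the first Control library that of Tgfb1 was -0.73 (adjusted p = 0.028), and in the test without moderation that of Tgfb2 missed the threshold (adjusted p = 0.062). The experiments differ in more than the source of 2-HG, since stable expression is set against 24 h of treatment, and these cannot be told apart here.

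The values of the control groups were unlike in several of these genes. They are set side by side without a test, because the tables were normalized separately and list different entries (43280 and 23930, with 20443 names in both). Whether the same target was read for a gene in both experiments was not tested, so these ratios need not reflect the cells. The mean of Tgfb1 was 5.26 RPM in Control and 75.6 RPM in 2-HG(-), a ratio of 14.4. Smad3 was at 3.73 and 54.3 RPM, a ratio of 14.5, whereas Smad7 was at 131 and 21.1 RPM, a ratio of 6.22 with the higher level in Control. Ltbp1 was 3.33 times higher in 2-HG(-), and Tgfbr3 and Ltbp2 were 2.8 and 2.44 times higher in Control. The remaining 4 genes lay within 1.51 times of each other, with Tgfbr2 at 391 and 366 RPM the closest.

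Other genes of the pathway were followed in 4 lists, of latency and activation, of receptor partners, SMADs and regulators, of target genes, and of the related activin branch. In 2MUT, 16 of the 58 genes tested were higher and 13 were lower. The number higher was 10 without the first or the third 2MUT library and 9 without the second. Over all genes it fell as well, from 1826 to 1358, 1296 and 1271 with the same libraries left out. With 2-HG 9 of 59 were higher and 14 lower. For these counts and those of each list below, the shares over all genes were 16.5% higher and 17.3% lower in 2MUT, and 16.1% and 16.7% with 2-HG. The median log2 fold changes over these genes were -0.02 and -0.12. The difference between the experiments passed for 26 of the 58 genes tested in both, beside 39.4% over all genes, made up of 6 of 12 in latency and activation, 5 of 16 among partners and regulators, 13 of 22 target genes and 2 of 8 in the activin branch.

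In the list of latency and activation, 4 of 12 tested genes rose and 2 fell in 2MUT, beside 16.5% and 17.3% of all genes. Without the third Control library 3 of the list fell, and without the first 4 fell. Thbs1 encodes thrombospondin-1, an activator of latent TGF-beta, and rose from 1755 ± 192 to 2935 ± 93.3 RPM (SD, n = 3 per group), a change of 0.75 on the log2 scale (adjusted p = 0.00016). Furin, the protease that cleaves the TGF-beta precursor, rose by 0.94 (adjusted p = 0.00066) and the integrin subunit Itgb1 by 0.80 (adjusted p = 0.00066). Lrrc32, which holds latent TGF-beta at the cell surface, changed by -1.01 (adjusted p = 0.0019) and the membrane protease Mmp14 by -0.57 (adjusted p = 0.0029). With 2-HG, limma, edgeR and DESeq2 called 0 of the 12 higher, as did an unadjusted p under 0.05, while limma called 5 lower. Thbs1 went from 611 ± 28.2 to 164 ± 24.3 RPM (SD, n = 3 per group), a change of -1.90 on the log2 scale (adjusted p = 5.8e-06), Itgb8, a subunit of an integrin that activates latent TGF-beta, changed by -1.12 (adjusted p = 0.0011), and Mmp2 by -0.74 (adjusted p = 0.022). Lrrc32 was lower here too (-1.05, adjusted p = 0.00094), with no difference between the experiments detected (0.04, adjusted p = 0.91). Mmp2 was higher in 2MUT (0.44, adjusted p = 0.038), and its changes differed by 1.18 (adjusted p = 0.0044). With 2-HG the values were -0.47 for Furin (adjusted p = 0.098), -0.23 for Itgb1 (adjusted p = 0.24) and -0.38 for Mmp14 (adjusted p = 0.065), and in 2MUT Itgb8 was at -0.35 (adjusted p = 0.24). For Thbs1 the changes differed by 2.64 between the experiments (adjusted p = 5.5e-08). The call of Mmp2 with 2-HG was lost without the first 2-HG(-) library (-0.64, adjusted p = 0.077) or the third (-0.72, adjusted p = 0.073). That in 2MUT was lost on leaving out any 1 library but the second 2MUT one (0.34 to 0.58 over all 6 omissions, adjusted p = 0.015 to 0.15), with no filter (adjusted p = 0.055) and without a trend (adjusted p = 0.07). The test without moderation ended both calls of Mmp2 (adjusted p = 0.14 in 2MUT and 0.16 with 2-HG) and that of Mmp14 (adjusted p = 0.051).

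Of the 16 tested receptor partners, SMADs and regulators, 5 rose and 1 fell in 2MUT, beside 16.5% and 17.3% of all genes. Of the 16, 1 rose without the first or the second 2MUT library, 2 without the first Control library and 3 without the second Control or the third 2MUT library. Over all genes the number higher fell too, from 1826 to 1358, 1271, 1520, 1665 and 1296 with these libraries left out in that order. Smad6, the other inhibitory SMAD, rose from 14.7 ± 2.28 to 41.9 ± 11.4 RPM (SD, n = 3 per group), a change of 1.43 on the log2 scale (adjusted p = 0.00028). Pmepa1, a feedback inhibitor that traps SMAD proteins, rose by 0.50 (adjusted p = 0.015) and the SMAD co-repressor Ski by 0.45 (adjusted p = 0.028), whereas Fkbp1a, which guards the type I receptor against leaky activity, changed by -0.53 (adjusted p = 0.0031). With 2-HG, 5 of 17 rose and 3 fell (3 rose without the third 2-HG(-) or the second 2-HG(+) library), and 6 genes of the list passed in both experiments. Smad6, Ski, Pmepa1 and Fkbp1a changed in opposite directions, and the ubiquitin ligase Smurf1 and the phosphatase gene Ppm1a were higher in both. Smad6 changed by -0.80 (adjusted p = 0.0032), Ski by -0.80 (adjusted p = 0.0065), Pmepa1 by -0.70 (adjusted p = 0.0027) and Fkbp1a by 0.55 (adjusted p = 0.0025). Smurf1, a negative regulator, rose by 0.40 in 2MUT (adjusted p = 0.033) and by 0.46 with 2-HG (adjusted p = 0.0056), with no difference detected (-0.06, adjusted p = 0.79). Ppm1a rose by 0.44 (adjusted p = 0.047) and 0.32 (adjusted p = 0.032), again with no difference detected (0.13, adjusted p = 0.6). The receptor-associated protein Strap rose by 0.60 with 2-HG (adjusted p = 0.0052) and was at 0.19 in 2MUT (adjusted p = 0.25). The differences between the experiments were 2.23 for Smad6 (adjusted p = 2.1e-05), 1.25 for Ski (adjusted p = 0.0013), 1.20 for Pmepa1 (adjusted p = 0.00026) and -1.09 for Fkbp1a (adjusted p = 3.8e-05). In 2MUT the call of Pmepa1 was lost without the first (0.40, adjusted p = 0.072) or the second 2MUT library (0.49, adjusted p = 0.052). That of Ski was lost without the first Control library (0.29, adjusted p = 0.069) or any 1 of the 2MUT libraries (0.40 to 0.49, adjusted p = 0.055 to 0.1). Those of Smurf1 (0.30 to 0.48, adjusted p = 0.014 to 0.12) and Ppm1a (0.33 to 0.54, adjusted p = 0.02 to 0.19) in 2MUT were lost on leaving out any 1 library but the third Control one. With 2-HG the call of Ppm1a was lost without the second or the third library of either group (0.26 to 0.37 over all 6 omissions, adjusted p = 0.021 to 0.13). The test without moderation ended the calls of Pmepa1 (adjusted p = 0.097), Ski (0.16), Smurf1 (0.095) and Ppm1a (0.14) in 2MUT, and of Ski (0.08), Strap (0.058) and Ppm1a (0.061) with 2-HG. Without a trend those of Ski (adjusted p = 0.079), Smurf1 (0.061) and Ppm1a (0.072) in 2MUT and of Ppm1a with 2-HG (0.057) were lost. Ppm1a also missed the threshold with no filter (0.069) or a floor of 1 RPM (0.05) in 2MUT, and with quantile normalization (0.066) with 2-HG.

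Among 22 tested target genes, 3 rose and 10 fell in 2MUT, beside 16.5% and 17.3% of all genes. The median log2 fold change of the list was -0.27. Acta2, encoding the α-smooth muscle actin of myofibroblasts, went from 143 ± 4.19 to 36.8 ± 2.2 RPM (SD, n = 3 per group), a change of -1.93 on the log2 scale (adjusted p = 5.4e-07), and the calponin gene Cnn1 changed by -2.07 (adjusted p = 4.5e-05). Tgfbi, a secreted matrix protein named for its induction by TGF-beta, changed by -1.70 (adjusted p = 7.3e-06). The genes that rose were Cdkn2b (0.73, adjusted p = 0.04), Fn1 (0.43, adjusted p = 0.011) and Ccn2, listed as Ctgf (0.36, adjusted p = 0.0079). The groups overlapped for Cdkn2b, and its call was lost without the first Control library (0.42, adjusted p = 0.12), the first 2MUT library (0.72, adjusted p = 0.093) or the second (0.57, adjusted p = 0.15). That of Fn1 was lost without the third 2MUT library (0.35, adjusted p = 0.053). Both were lost with no filter (adjusted p = 0.068 for Cdkn2b and 0.066 for Fn1), without a trend (0.088 and 0.055) and in the test without moderation (0.23 and 0.099). Postn (-1.50, adjusted p = 3e-05), Klf10 (-1.34, adjusted p = 6.4e-06) and Ankrd1 (-0.88, adjusted p = 5.4e-05), named for their changes with 2-HG, fell in 2MUT.

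With 2-HG, 4 of 22 target genes rose and 5 fell, with a median of -0.19. Acta2 fell here too, from 381 ± 17.8 to 197 ± 8.13 RPM (SD, n = 3 per group), a change of -0.95 on the log2 scale (adjusted p = 6e-05), and the change in 2MUT minus that with 2-HG was -0.99 (adjusted p = 2.8e-05). Cnn1 rose instead, from 36.8 ± 1.4 to 49.4 ± 1.86 RPM (SD, n = 3 per group), by 0.42 on the log2 scale (adjusted p = 0.011), and its changes differed by -2.49 (adjusted p = 5.6e-06). The call of Cnn1 was lost without the third 2-HG(-) or the second 2-HG(+) library (0.39 to 0.45 over all 6 omissions, adjusted p = 0.013 to 0.055). Postn, encoding the matrix protein periostin, went from 233 ± 10.9 to 27.9 ± 4.54 RPM (SD, n = 3 per group), a change of -3.03 on the log2 scale (adjusted p = 6e-07), and Cdkn2b changed by -1.07 (adjusted p = 0.001). Ankrd1 rose by 0.91 (adjusted p = 0.00086) and Klf10, an early TGF-beta response gene, by 0.57 (adjusted p = 0.01), the latter not past the threshold in the test without moderation (adjusted p = 0.075). Both had fallen in 2MUT, and the differences were -1.79 for Ankrd1 (adjusted p = 2.6e-06) and -1.91 for Klf10 (adjusted p = 2e-06). Postn fell in both, with a difference of 1.53 (adjusted p = 6.2e-05). Tgfbi was also lower with 2-HG (-0.29, adjusted p = 0.041), a call that held only without the third 2-HG(+) library when 1 was left out (-0.36 to -0.24 over all 6 omissions, adjusted p = 0.031 to 0.17) and was lost with no filter (adjusted p = 0.057), without a trend (0.071) and without moderation (0.066). Fn1 (-0.08, adjusted p = 0.57) and Ccn2 (-0.18, adjusted p = 0.54) did not pass.

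In the activin branch, 4 of 8 tested genes rose in 2MUT (2 without the second or the third 2MUT library), beside 16.5% of all genes. By limma, edgeR and DESeq2, and at an unadjusted p under 0.05, 0 of the 8 were lower. The named rises were those of the ligand Gdf11 (0.83, adjusted p = 7.4e-05), the activin subunit gene Inhba (0.69, adjusted p = 0.0022) and the activin antagonist Fstl3 (0.68, adjusted p = 0.017), of which Fstl3 did not pass without the second (0.53, adjusted p = 0.081) or the third 2MUT library (0.64, adjusted p = 0.061), nor in the test without moderation (adjusted p = 0.092). With 2-HG, limma called 1 of the 8 lower (edgeR and DESeq2 called 2), and 0 were higher by any of these tools or at an unadjusted p under 0.05. The gene called by limma was the activin antagonist Fst, at 6.36 RPM in 2-HG(-) and 2.06 RPM in 2-HG(+) (log2 fold change -1.25, adjusted p = 0.00067), and it was at -0.03 in 2MUT (adjusted p = 0.96). With 2-HG, Gdf11 was at -0.35 (adjusted p = 0.065), Inhba at 0.16 (adjusted p = 0.52) and Fstl3 at 0.32 (adjusted p = 0.21).

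**Figure D3:**
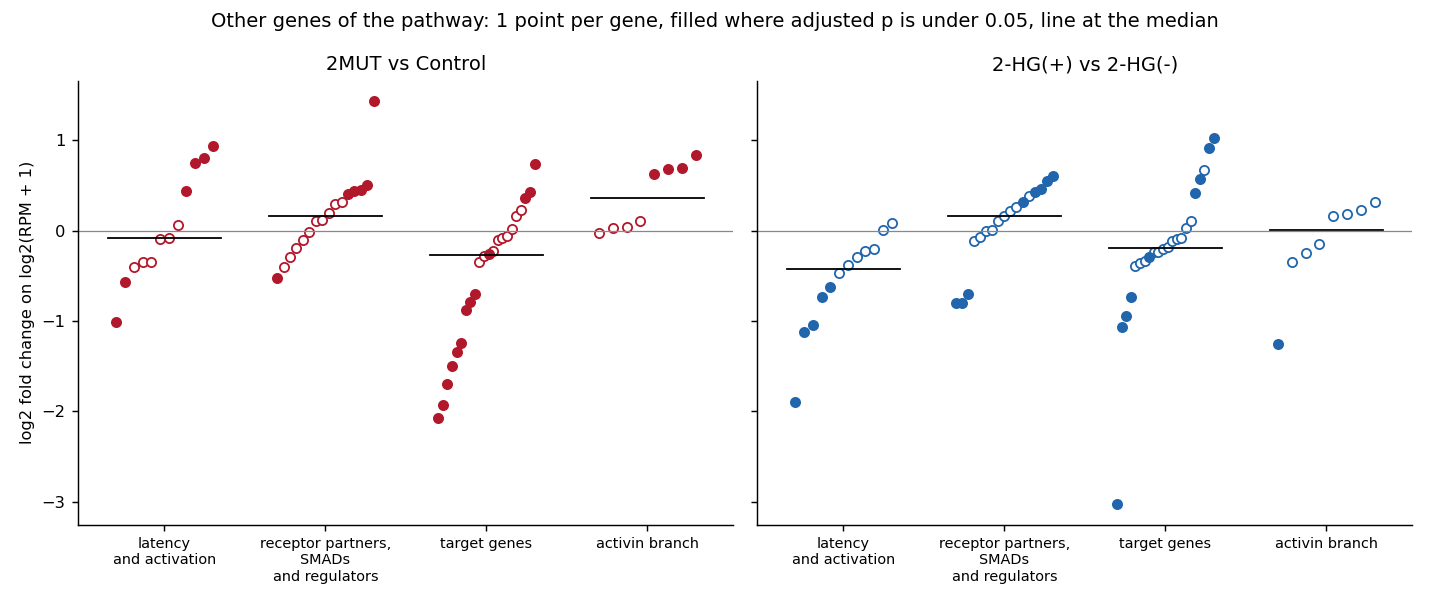
Log2 fold change on log2(RPM + 1) of the other pathway genes, 1 point per gene tested, in 2MUT against Control (left) and in 2-HG(+) against 2-HG(-) (right), sorted within each of 4 lists. Filled points have an adjusted p under 0.05 and the line is the median of the list; Thbs1 is the lowest point of latency and activation with 2-HG, at -1.90.

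**Figure D4:**
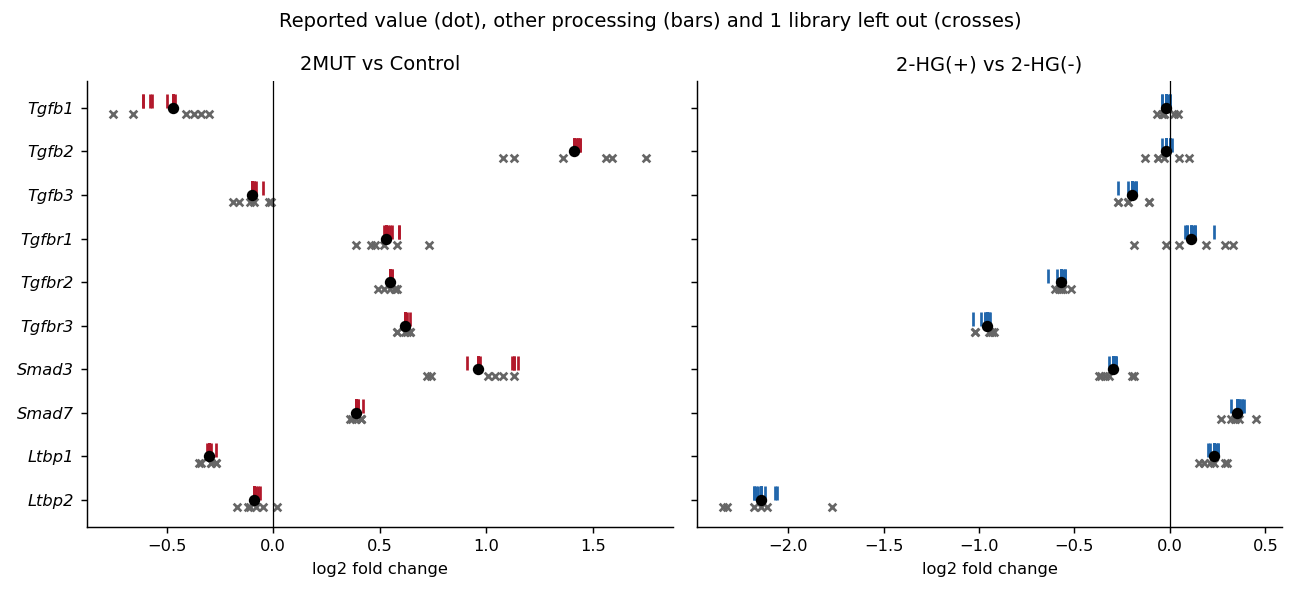
Log2 fold change of each member as reported (black dot), under other processing (coloured bars) and with 1 library left out (crosses), in 2MUT against Control (left) and in 2-HG(+) against 2-HG(-) (right). Tgfb2 in 2MUT spreads from 1.08 to 1.75 with 1 library left out and Ltbp2 with 2-HG from -2.34 to -1.77, while Tgfbr3 with 2-HG stays between -1.03 and -0.92 over all settings.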

How the data were processed

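RNA-seq was performed on 12 libraries of MEF cells in 4 groups. Reads of the Ion AmpliSeq libraries were aligned by the authors (TMAP, AmpliSeq mouse reference) and summarized per gene by the AmpliSeqRNA plug-in, and RPM were deposited, one table per experiment. Each value divided by that of 1 read in its library came out whole (tolerance 0.1 read) for 100% of entries, which gave the depth and the reads used in the edgeR and DESeq2 alternatives. Reads per library were 6472439 to 7313602 in the 2MUT table and 14959318 to 18363768 in the other, and 3 reads were taken as the limit of detection. No pair of replicate libraries agreed within sampling noise (chi-square of 5.57 to 31.45 per degree of freedom), so none was merged.

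Each table was tested on its own in R 4.3.3, using limma 3.58.1 with a trend and log2(RPM + 1) of genes whose mean reached 1 RPM, followed by Benjamini-Hochberg adjustment. The difference between the comparisons was a contrast over the 12 libraries. The authors used GeneSpring and Student's test per gene. Fits were tested on simulated data. Members and lists were chosen with earlier results of these data known, and the 4 lists were not picked for how their genes moved. All members were described; of each list, the 3 called genes with the largest change in each direction, with at least 10 RPM in the higher group, were named, and Fst, Ppm1a and the second comparison of each reported gene were added after their values were seen. Of the genes this rule names, 1 is not reported here. Alternatives were an added value of 0.1, a floor of 1 RPM, no filter or one at 10 RPM, scaling by quantiles, by the 75th percentile or by the median of ratios, limma without a trend, a test without moderation, edgeR 4.0.16, DESeq2 1.42.0, a replicate block and each library left out. Gene coordinates are those of GENCODE on GRCm38, and windows were matched by gene symbol to RefSeq on GRCm38.p6. The position of the AmpliSeq targets was not used here.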

Additional observations from a re-analysis of the deposited data

Results flagged for a closer look

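For 6 members the change in 2MUT differed from that with 2-HG in the limma contrast of the changes over 12 libraries, which passed for 39.4% of the 9594 genes tested in both. On the log2 scale the change in 2MUT minus the change with 2-HG was 1.58 for Tgfbr3, 1.11 for Tgfbr2, 2.06 for Ltbp2, 1.43 for Tgfb2, 1.25 for Smad3 and -0.53 for Ltbp1. Tgfbr2 and Tgfbr3 passed the threshold in opposite directions in the separate comparisons, Tgfb2, Smad3 and Ltbp1 passed it in 2MUT alone, and Ltbp2 passed it with 2-HG alone. With any 1 library left out these 6 differences kept their sign and stayed past the threshold.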

How the results depend on the processing

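Over 593 values of the members under other settings, 567 kept their direction and side of the threshold, 8 fell short of it, 6 newly passed it and 12 changed sign, the last all for members not past the threshold. In 2MUT, 3 members were higher in the unmoderated test and 0 were lower without a trend (Ltbp1). With 1 library left out, between 0 and 1 were lower, 0 without Control library 2, 2MUT library 1 or 2MUT library 3. With 2-HG, 1 was higher with quantile normalization, edgeR or DESeq2 (Smad7), and between 0 and 1 with 1 library left out. Between 1 and 2 differences were called lower, 2 without Control library 1 (Tgfb1). Signs changed for Tgfb1 with 2-HG under median-of-ratios scaling and DESeq2 (0.00 each) and from -0.07 to 0.04 with 1 library left out, for Tgfb2 with 2-HG under quantile normalization (0.01), DESeq2 (0.00) and from -0.13 to 0.10, for Tgfbr1 with 2-HG from -0.19 to 0.33, for Ltbp2 in 2MUT from -0.17 to 0.02, and for the difference of Smad7 from -0.06 to 0.12. The cause of these shifts was not tested. Same-numbered libraries correlated in their deviations between 0.0293 and 0.0708 in the first experiment and between -0.457 and 0.0572 in the second, so the numbers do not pair them. Differently numbered libraries of the 2-HG experiment correlated between -0.414 and 0.48. A block by number does not take this up, and its cause was not tested. With the number as a replicate block the members called were again 5 higher and 1 lower in 2MUT and 0 and 3 with 2-HG. Over all genes 1911 were higher and 1987 lower in 2MUT and 1217 and 1286 with 2-HG, against 1826, 1915, 1668 and 1737 without the block. The unmoderated test called 1021 and 1223 genes in 2MUT and 1098 and 1139 with 2-HG. Of the other pathway genes, it called 7 higher in 2MUT and limma without a trend 9, against 16; for partners and regulators these were 1 and 2 against 5, and for target genes 1 each, as with no filter, against 3. It also called 1 lower against 2 in latency and activation, 2 lower against 1 among partners and regulators and 2 higher against 4 in the activin branch. With 2-HG it and the block each called 3 partners and regulators higher against 5, and quantile, 75th percentile and median-of-ratios scaling, edgeR and DESeq2 called 2 of the activin branch lower against 1, the filter at 10 RPM 0. With the block the calls of Cnn1 (adjusted p = 0.05), Ppm1a (0.1) and Tgfbi (0.11) with 2-HG were lost. Tgfb1, Tgfbr1 and Smad3 gave no value in 2MUT under the filter at 10 RPM, and their reads, as few as 17 in a library, limit what can be detected.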
